A study of Homo sapiens with 4 samples.

Results

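The genes described here are *GAPDH*, *PGK1*, *PGAM1*, *PGAM2*, *ENO1*, *ENO2*, *ENO3*, *PKM* and *PKLR*, which encode the enzymes of lower glycolysis, from glyceraldehyde-3-phosphate dehydrogenase to pyruvate kinase. They were chosen by name, as the genes of these 5 enzymes with their main isozymes, and all 9 were found among the 58288 genes of the expression tables. Lower glycolysis turns glyceraldehyde 3-phosphate into pyruvate and is the stretch of the pathway that yields ATP without oxygen. Its genes are textbook targets of HIF1α, the oxygen-regulated transcription factor, while kidney proximal tubule cells in the body make glucose by running most of these steps backwards. GAPDH oxidizes glyceraldehyde 3-phosphate, phosphoglycerate kinase (*PGK1*) makes the first ATP, and phosphoglycerate mutase (*PGAM1*, *PGAM2*) moves the phosphate group. Enolase (*ENO1*, *ENO2*, *ENO3*) then removes water, and pyruvate kinase (*PKM*, *PKLR*) makes the last ATP together with pyruvate.

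The study mapped HIF1α binding and measured RNA in HK2 cells, an immortalized human renal proximal tubular line. All 4 samples came from cells given 50 μM FG-4592 (roxadustat), an inhibitor of the prolyl hydroxylases that mark HIF1α for degradation, for 6 h. The labels do not give this time, which comes from the methods section. ChIP-seq with an antibody to HIF1α gave 2 replicate peak lists, and RNA-seq gave 2 replicate tables of transcript levels. Untreated cells were not analysed here. Every value is therefore a level or a peak position under treatment, with no fold change and no test between conditions. Levels are sums per gene in FPKM, a count of fragments corrected for transcript length and library size. The RNA tables give no read counts, and bases of coverage came to 4442 Mb for the first RNA library and 4202 Mb for the second. Peak positions are on GRCh37 (hg19), the RNA tables follow GRCh38, and both kinds of data were joined by Ensembl gene identifier.

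The ChIP-seq replicates stood apart. Replicate 1 listed 1689 peaks with a median width of 325 bp, and replicate 2 listed 16953 with a median width of 404 bp and a widest peak of 21101 bp. The lists carry no height, score or depth, so peaks could not be ranked. In genes with a mean of at least 1 FPKM, peaks of replicate 1 covered 0.202% of exon bases and 0.0239% of intron bases. Peaks of replicate 2 covered 9.23% of exon bases and 0.139% of intron bases in the same genes. What makes the lists differ was not tested, and every binding result below is given for each list and for both.

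The cell label was checked against marker genes. Of 13 proximal tubule markers, 3 reached a mean of 1 FPKM, with a summed level of 75.2 FPKM in replicate 1 and 69.3 in replicate 2. Most of that sum was *GGT1*, which encodes a brush border enzyme, at 62.3 and 58.5 FPKM. The endocytic receptor gene *LRP2*, the organic anion transporter genes *SLC22A6* and *SLC22A8*, and the transcription factor gene *HNF4A* were at 0 in both libraries. The gene of the sodium-phosphate transporter, *SLC34A1*, was at 0.0372 and 0. Thus, several defining genes of the proximal tubule were listed at 0. Epithelial and renal lineage genes were present, 5 of 7 at 1 FPKM or more, with *KRT19* at 184 and 177 FPKM and the renal lineage factor gene *PAX8* at 121 and 114. The adherens junction gene *CDH1* was at 0.211 and 0.379 FPKM. No marker of other nephron segments (0 of 5) or of endothelium (0 of 3) reached 1 FPKM. Of 4 fibroblast markers 2 reached 1 FPKM, *COL1A1* at 38.7 in each library and *LUM* at 3.19 and 2.99, while *PDGFRB* was at 0.490 in each and *DCN* at 0.0754 and 0.322. Of 3 leukocyte markers 1 did, *CD68* at 33.6 and 31.5 FPKM, while the leukocyte gene *PTPRC* was at 0. Of 8 gluconeogenesis genes, a pathway of the tubule in the body, 3 were at 1 FPKM or more, and *FBP1* and *G6PC* were listed at 0.

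Lower glycolysis RNA was abundant in these cells, and 1 isozyme gene of each enzyme carried nearly all of it. The 9 genes together held 3.53% of all FPKM in replicate 1 and 3.39% in replicate 2, or 1.41% and 1.33% without *GAPDH*. Of the 9, 7 had a mean of at least 1 FPKM, against 59.6% of 19659 protein-coding genes, and 6 had a mean of at least 100, against 2.5%. *PGAM2* and *PKLR* were the 2 members below 1 FPKM. RNA was measured in bulk, so fewer cells expressing a gene and less RNA per cell cannot be told apart.

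Summed over all transcripts, *GAPDH* had the highest level of all genes, at 7670.2 FPKM in replicate 1 and 7433 in replicate 2 (mean 7552 ± 168, SD, n = 2). It held 2.12% and 2.06% of all FPKM by itself, ahead of the ferritin light chain gene *FTL* at 3945 and 3718. On protein-coding transcripts alone, an alternative chosen after seeing the data, *GAPDH* was at 2825 and 2683 FPKM. That is below the level of *FTL*, which has 1 transcript. *PGK1*, the gene of the next enzyme, was at 620.1 and 539 FPKM (579.7 ± 57.2), rank 76 of all genes. *PGAM1*, whose product is the mutase found in most tissues, was at 837 and 823 FPKM (830.0 ± 10.1), rank 32. *PGAM2*, the muscle mutase gene, was at 0 and 0.0648 FPKM. The enolase gene *ENO1*, which is expressed in most tissues, was at 2662 and 2579 FPKM (2620.5 ± 58.7), rank 6. *ENO2*, known as the neuronal enolase gene, was at 132 and 103 FPKM (118 ± 20.2), rank 411, and *ENO3*, the muscle enolase gene, was at 10.0 and 8.99 FPKM (9.51 ± 0.732), rank 6612. *PKM*, the pyruvate kinase gene of most tissues, was at 852 and 747 FPKM (799.9 ± 74.2), rank 38, and *PKLR*, which serves liver and red cells, was at 0 in both libraries.

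**Figure D1:**
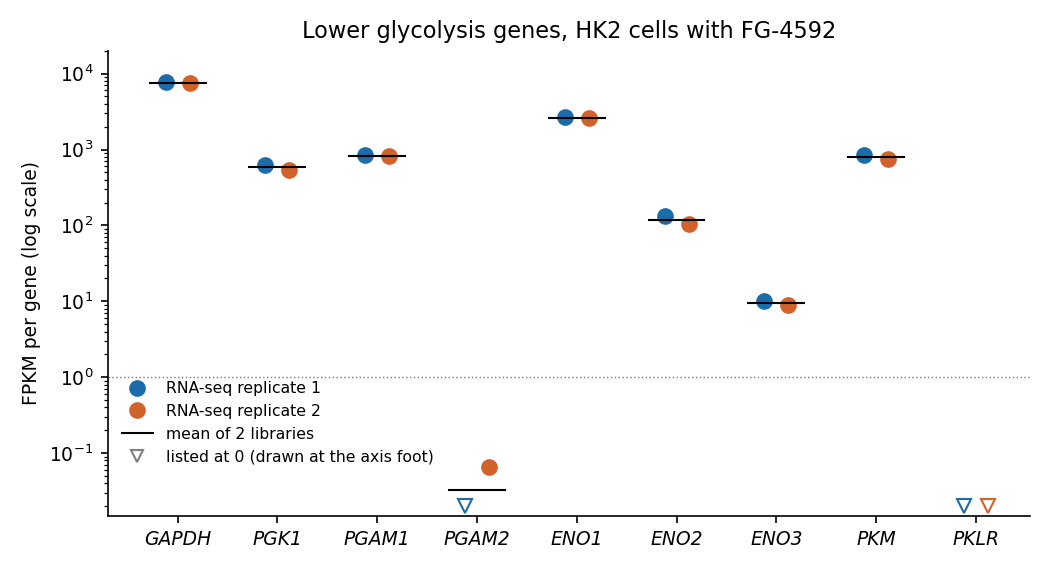
FPKM per gene on a log axis for the 9 lower glycolysis genes in pathway order. Points are the 2 RNA-seq libraries, lines their mean, and open triangles at the axis foot mark values of 0. The libraries lie close together, and the genes span from *GAPDH* at a mean of 7552 FPKM to *PKLR* at 0.

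By level the order was *GAPDH*, *ENO1*, *PGAM1*, *PKM*, *PGK1*, *ENO2*, *ENO3*, *PGAM2*, *PKLR*. Of the 8 neighbouring pairs, 6 did not overlap over the 2 libraries. *PGAM1* and *PKM* overlapped, since *PKM* was higher in replicate 1 and *PGAM1* in replicate 2, and *PGAM2* and *PKLR* shared the value 0. The level of *GAPDH* was 2.88 times that of *ENO1* in each library and 12.4 and 13.8 times that of *PGK1*. On protein-coding transcripts alone, an alternative chosen after seeing the data, it was 2.43 and 2.48 times that of *ENO1* and 5.52 and 5.10 times that of *PGK1*. With each gene reduced to its largest transcript, or to transcripts annotated as protein-coding, *PGK1* stood above *PKM*.

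Processed copies of these genes are scattered over the genome, and reads may be shared among copies. *GAPDH* had 62 annotated pseudogene copies with a summed level of 10.5 FPKM in each library, 0.139% of the parent, and only *GAPDHP1* reached 1 FPKM (9.05 and 8.68). *PGAM1* had 13 copies, *PKM* 5, *ENO1* 4 and *PGK1* 1. Of these, only *ENO1P4* reached 1 FPKM, at 2.13 and 2.40, and adding the copies to their parents kept the order of the 9 genes. How reads were divided between parents and copies is not recorded in the tables. Other genes for the same reactions, most of them known from testis or red cells, were low too. *GAPDHS* and *PGK2* were at 0, *PGAM4* at 8.65 and 7.25 FPKM, *BPGM* at 3.40 and 3.73, and *ENO4* at 0.256 and 0.748. Whether reads listed at these genes came from the members was not tested.

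Within each enzyme the division among isozymes was uneven. *ENO1* made up 94.9% of enolase FPKM in replicate 1 and 95.8% in replicate 2 (mean 95.4% ± 0.627, SD, n = 2). *ENO2* made up 4.70% and 3.84%, and *ENO3* 0.357% and 0.334%. Expressed as ratios, *ENO1* stood 20.2 and 25.0 times above *ENO2*, and *ENO2* 13.2 and 11.5 times above *ENO3*. On protein-coding transcripts alone, again chosen after seeing the data, these were 10.2 and 12.8 times and 14.9 and 13.3 times. The *ENO2* share was then 8.84% and 7.20%, and the *ENO3* share 0.594% and 0.542%. The differences between the 3 enolase genes were far larger than those between libraries. With the largest transcript alone, the mean shares were 2.22% for *ENO2* and 0.186% for *ENO3*, and by bases of coverage *ENO3* had 0.157%. *PGAM1* made up 100% and 99.99% of the FPKM of *PGAM1* and *PGAM2*, with *PGAM4* not counted, and *PKM* 100% of that of *PKM* and *PKLR* in both.

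The tissues known for the sparse isozymes left few traces in the marker genes. No skeletal muscle marker of 4 reached 1 FPKM, and *CKM* was at 0 and 0.0635 FPKM beside *PGAM2* and *ENO3*. Of the neuronal markers, *TUBB3* was at 50.3 and 53.0 FPKM, while *SYP* was at 0.534 and 0.798 and *RBFOX3* at 0.0370 and 0.0396, beside an *ENO2* level above 100. The liver genes *ALB* (0.0569 and 0) and *APOA1* (0 and 0) and the erythroid gene *HBB* (0 and 0) were at or near 0, as was *PKLR*, although *HBA1* was at 5.98 and 7.22 FPKM.

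All 7 members with a mean of at least 1 FPKM were lower in replicate 2 than in replicate 1. Of all genes at or above 1 FPKM, 48.2% were lower in replicate 2, of those at or above 100 FPKM 64.6%, and of those at or above 500 FPKM 80.2%, so abundant genes as a group leaned the same way. The log2 ratio of replicate 2 to replicate 1 was -0.05 for *GAPDH*, -0.02 for *PGAM1* and -0.05 for *ENO1*. It was -0.20 for *PGK1*, -0.19 for *PKM*, -0.16 for *ENO3* and -0.35 for *ENO2*. No member at or above 100 FPKM left the range of such genes, in which the 2.5 percentile was -0.40 and the 97.5 percentile 0.44. *ENO3*, below that level, lay within the same percentiles of genes at or above 1 FPKM, -0.65 and 0.72. Both libraries had the same treatment, so this spread describes the libraries and no condition.

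The larger of these gaps went with shifts among transcripts. For *PGK1*, the transcript ENST00000491291, which has no defined coding sequence, was at 94.0 FPKM in replicate 1 and 1.77 in replicate 2. The coding transcript ENST00000373316 was at 511 and 526 FPKM, so the *PGK1* ratio turned to 0.04 on protein-coding transcripts alone. In *PKM*, the short transcript ENST00000568743 was at 110.2 and 6.58 FPKM, and coding transcripts alone gave a ratio of -0.02. The 4 largest *ENO2* transcripts traded places between libraries. ENST00000541477 was at 44.5 and 3.73 FPKM, and ENST00000538763 at 25.4 and 0.957. ENST00000535366 was instead higher in replicate 2, at 12.6 and 40.5 FPKM, as was ENST00000229277 at 29.0 and 37.3. On protein-coding transcripts the *ENO2* ratio was -0.43, below the 2.5 percentile of -0.40 found on all transcripts. A range on protein-coding transcripts was not computed. *ENO2* thus kept its direction while its division into transcripts was not stable.

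The most abundant annotated transcript was often not a coding one. In *GAPDH*, the retained-intron transcript ENST00000474249 was at 4791 and 4699 FPKM, above the coding ENST00000229239 at 2658 and 2534. In *ENO1*, the retained-intron ENST00000464920 was at 1460.3 and 1458 FPKM, above the coding ENST00000234590 at 1147 and 1068. In *PKM*, ENST00000567118, annotated as a target of nonsense-mediated decay, was at 401 and 399.6 FPKM. These labels come from the annotation, and whether such transcripts were full-length in these cells was not tested. Protein-coding transcripts held 36.8% and 36.1% of *GAPDH* FPKM, 43.8% and 42.0% of *ENO1*, and 22.0% and 24.7% of *PKM*. They held 99.5% and 99.4% of *PGAM1*, 82.5% and 97.5% of *PGK1*, 86.2% and 81.7% of *ENO2*, and 76.2% and 70.8% of *ENO3*. Nearly all of *PGAM1* was thus 1 transcript, ENST00000334828, at 833 and 818 FPKM.

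*PKM* makes 2 proteins by a choice between exon 9, which gives PKM1, the form of muscle and brain, and exon 10, which gives PKM2, the form of proliferating cells. The exons have the same length, 167 bases, and follow each other on the minus strand of chromosome 15. They are shown because these are the stretches that set the 2 forms apart. They share 105 bases (62.9%), and capitals mark the 62 positions at which the exons differ (GRCh37, exon 9 at chr15:72495363-72495529 and exon 10 at chr15:72494795-72494961, both minus strand).
exon 9: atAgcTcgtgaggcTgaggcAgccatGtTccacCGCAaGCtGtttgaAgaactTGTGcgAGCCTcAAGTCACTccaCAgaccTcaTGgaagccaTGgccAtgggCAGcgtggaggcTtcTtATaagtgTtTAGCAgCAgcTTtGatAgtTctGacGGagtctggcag
exon 10: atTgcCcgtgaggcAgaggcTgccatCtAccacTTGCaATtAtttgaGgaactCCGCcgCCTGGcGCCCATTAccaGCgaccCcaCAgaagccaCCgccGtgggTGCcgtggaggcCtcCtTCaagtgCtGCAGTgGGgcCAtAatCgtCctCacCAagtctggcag

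Exon 10 of *PKM* held more than exon 9 by FPKM of all transcripts and by coverage on the exons. On protein-coding transcripts alone its share was the smaller. That last measure counts transcripts by their annotation and not reads on the exons themselves. Transcripts that hold exon 10 were at 500.2 and 488 FPKM, and those that hold exon 9 at 169 in each library. The exon 10 group includes ENST00000569857, at 74.5 and 64.9 FPKM, which ends inside exon 10 and holds only part of it. Exon 10 thus had 74.7% and 74.3% of the FPKM of both groups (mean 74.5% ± 0.275, SD, n = 2). Coverage on the exons themselves differed more. Summed over transcripts it was 3143 and 2743 on exon 10 and 85.9 and 60.2 on exon 9, which makes 97.3% and 97.9% for exon 10. The largest exon 9 transcript, ENST00000568459, had a coverage of 50.9 and 34.6 on exon 9, while its most covered exon had 2568 and 2256. Which transcripts those reads came from was not tested. Transcripts annotated as protein-coding alone gave 8.82% and 7.45% for exon 10, because the main exon 10 transcript, ENST00000567118, is not annotated as coding. The splicing factors known to favour exon 10 were all expressed. *PTBP1* was at 162 and 161 FPKM, *HNRNPA1* at 291 and 304, *HNRNPA2B1* at 194 and 200.1, and *SRSF3* at 56.4 and 59.1.

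**Figure D2:**
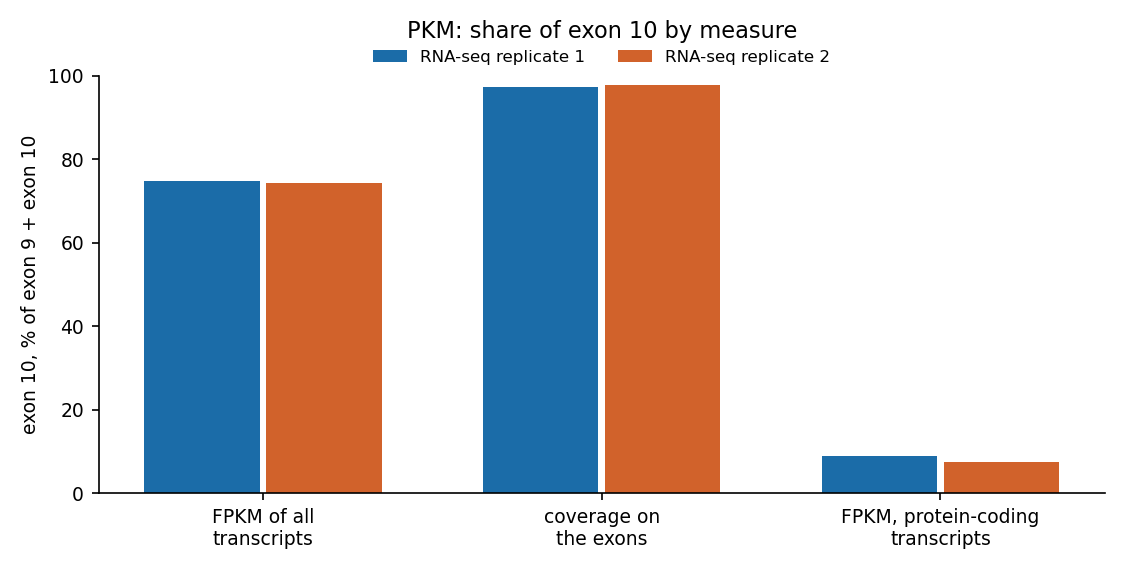
Share of exon 10 in percent of exon 9 plus exon 10 of *PKM*, by 3 measures, with 1 bar per RNA-seq library. The libraries are close to each other under every measure, while the measures range from a mean of 8.13% on protein-coding transcripts to 97.6% by coverage on the exons.

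HIF1α peaks lay at the start sites of most of the expressed members. A gene was counted when a peak came within 1 kb of any annotated start site by at least 1 bp. In replicate 1 this held for 6 of 9 members, *GAPDH*, *PGK1*, *PGAM1*, *ENO1*, *ENO2* and *PKM*. Among all 55862 genes that could be matched the share was 2.5%, among those at or above 1 FPKM 8.14%, and among those at or above 100 FPKM 13.9%. All 6 members at or above 100 FPKM were among the bound, and none of the 3 members below 10 FPKM was. In replicate 2 it held for 6 members as well, with *ENO3* in place of *ENO2*, against 9.72%, 20.8% and 49.8% of the same groups of genes. Thus, among abundant genes a replicate 2 peak was common. Peaks in both lists were found at *GAPDH*, *PGK1*, *PGAM1*, *ENO1* and *PKM*, 5 of 9, against 0.779%, 2.68% and 9.52%. At the start site of the canonical transcript alone, the counts were 6 in replicate 1, 4 in replicate 2 and 4 in both, as *ENO3* and *PKM* dropped out of the replicate 2 list. The matching shares were 2.06%, 6.39% and 0.469% of all genes, and 12.3%, 28.8% and 5.75% of those at or above 100 FPKM. The same 4 genes had peaks of the 2 lists that overlapped each other at a start site, against 0.433% of all genes and 5.56% of those at or above 100 FPKM.

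**Figure D3:**
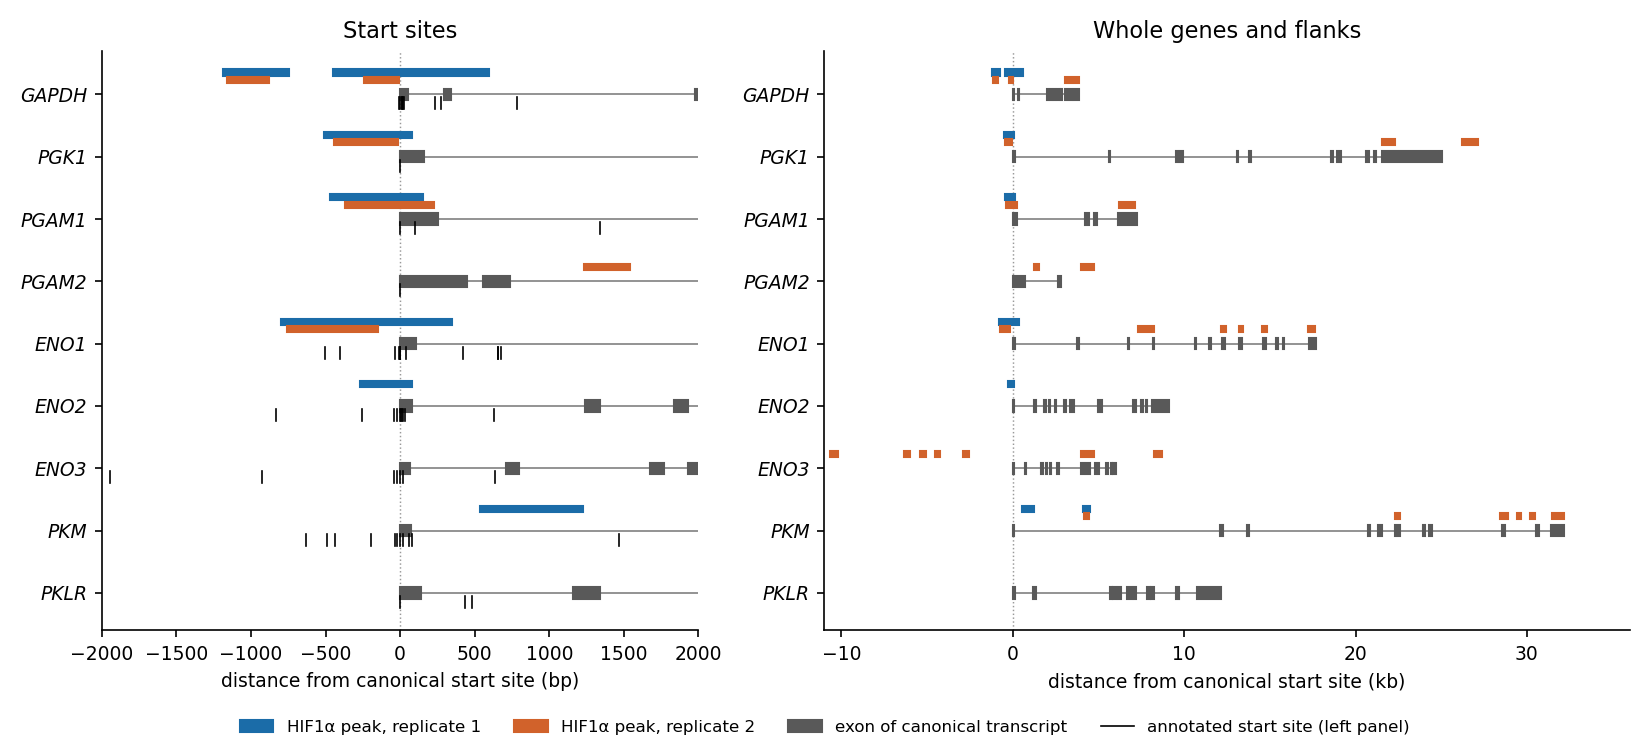
Position of HIF1α peaks along the 9 genes, drawn 5′ to 3′, as distance from the canonical start site in bp (left) and kb (right). Bars are peaks of replicate 1 (blue) and replicate 2 (orange), boxes are exons, and ticks are annotated start sites. Replicate 1 peaks cluster at start sites, with 5 of 8 spanning a canonical start, while replicate 2 adds peaks over exons far from it.

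In the sequences that follow, capitals mark ACGTG or GCGTG, the core of the hypoxia response element, or their reverse complements CACGT and CACGC. Sequences are shown for some of the replicate 1 peaks, each as the stretch around the motif nearest to the peak centre, read on the strand of the gene, since the peak lists give no summit. Stretches that meet an annotated UTR are limited to 30 bases of it. A match of these letters is a description, not evidence of contact.

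*GAPDH* (chr12:6643678-6647540, plus strand) had 2 replicate 1 peaks near its start. One, at chr12:6643234-6644281, spanned the canonical start site with its centre 74 bp downstream of it and held 7 motifs. The other, at chr12:6642497-6642939, was centred upstream of it (-965 bp), and the start of the divergent noncoding gene *GAPDH-DT*, at 0.254 and 0.311 FPKM, lay under it. Replicate 2 had a peak at each place, at chr12:6643439-6643676, centred at -126, and at chr12:6642524-6642801. One more replicate 2 peak covered the last exon at chr12:6646745-6647535, without a replicate 1 counterpart. There an antisense noncoding gene, ENSG00000269968, overlaps *GAPDH* and was at 154 and 130 FPKM. The strand of the libraries is not stated, so reads of overlapping antisense genes cannot be told apart. Transcripts starting within 1 kb of a replicate 1 peak held 99.4% of *GAPDH* FPKM in each library. The stretch shown is that of the upstream peak, chr12:6642681-6642771 (GRCh37, plus strand).
*GAPDH* upstream peak: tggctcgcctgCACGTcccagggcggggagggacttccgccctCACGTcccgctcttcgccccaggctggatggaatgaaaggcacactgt

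*PGK1* (chrX:77166236-77384792, plus strand) had a replicate 1 peak at chrX:77359234-77359826, over the canonical start site and centred at -215. Replicate 2 had one at nearly the same place, chrX:77359301-77359728, centred at -231. The peaks held 6 and 5 motifs, and 4 of them in each list were within 100 bp of the centre. Downstream, replicate 2 alone had peaks on the last exon (chrX:77381271-77382064) and on an exon of the neighbouring gene *TAF9B*, neither with a motif. Transcripts starting within 1 kb of the replicate 1 peak held 82.5% of *PGK1* FPKM in replicate 1 and 97.5% in replicate 2. The stretch at the peak centre, chrX:77359491-77359581 (GRCh37, plus strand), holds 3 of the motifs in a row.
*PGK1* start-site peak: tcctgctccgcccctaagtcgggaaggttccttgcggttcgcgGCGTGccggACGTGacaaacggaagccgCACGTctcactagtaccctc

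The mutase genes differed in level and in peaks. *PGAM1* (chr10:99185948-99193201, plus strand) had a peak over its canonical start in both lists, at chr10:99185476-99186099 in replicate 1, centred at -161, and at chr10:99185580-99186172 in replicate 2, centred at -72. The start of the ribosome biogenesis gene *RRP12*, which runs the other way and was at 16.8 and 16.4 FPKM, lay under both peaks and was 16 bp from the centre of the first. To which of the genes the peak belongs cannot be told apart. A replicate 2 peak on the last exon, chr10:99192146-99193075, again had no counterpart. *PGAM2* (chr7:44102326-44105166, minus strand) had no replicate 1 peak within 10 kb, and the nearest was 20631 bp from its start. Its 2 replicate 2 peaks, chr7:44100435-44101181 and chr7:44103627-44103930, both had their centres on exons of *DBNL*, a gene at 21.0 and 20.7 FPKM, the second one inside a *PGAM2* intron.

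The enolase genes showed 3 different pictures. *ENO1* (chr1:8921059-8939249, minus strand) had a wide replicate 1 peak at chr1:8938400-8939541, spanning the canonical start, centred at -225 and holding 15 motifs. Of these, 3 sites read CACGTG, which holds ACGTG on both strands and counts as 2 motifs. The start of the antisense gene *ENO1-AS1*, at 0.237 and 0 FPKM, lay under it. Replicate 2 had a peak inside that one, chr1:8938895-8939500, centred at -452 with 8 motifs, and 5 more on exons further down. *ENO2* (chr12:7022909-7032861, plus strand) had a replicate 1 peak over its canonical start, at chr12:7023475-7023823, centred at -95 with 1 motif. Replicate 2 had none within 10 kb of *ENO2*, and the nearest was 21003 bp from its start, so the *ENO2* peak rests on replicate 1 alone. *ENO3* (chr17:4851387-4860426, plus strand) had the reverse. The nearest replicate 1 peak was 807919 bp from its start, while replicate 2 had 7 peaks within 10 kb. Of these, 5 were centred outside *ENO3*, on exons of *RNF167*, *PFN1* and *SPAG7*. The other 2 made *ENO3* count as bound. One, chr17:4851532-4851861, was centred 129 bp from a start site of *PFN1*, a profilin gene at 754 and 696 FPKM, and 149 bp from a start site of *ENO3*. It was 145 bp from the start of the most abundant *ENO3* transcript, ENST00000519266, and its centre was at -2718 bp from the canonical *ENO3* start. To which of the genes it belongs cannot be told apart. The other, chr17:4858407-4859166, lay on an *ENO3* exon and met the start of an internal transcript, with its centre 4372 bp downstream of the canonical start. The *ENO1* stretch is chr1:8938895-8938924 (minus strand) and the *ENO2* stretch chr12:7023614-7023643 (plus strand), both GRCh37.
*ENO1* start-site peak: tcacccccctttcCACGCtactgcagccgt
*ENO2* start-site peak: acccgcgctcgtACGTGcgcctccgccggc

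For *ENO1*, 1 of the 2 abundant start sites lay under the replicate 1 peak, that of the coding ENST00000234590. Transcripts starting within 1 kb of the replicate 1 peak held 45.1% and 43.5% of its FPKM, and the retained-intron transcript ENST00000464920 starts inside the gene, 6765 bp from that peak and 224 bp from a replicate 2 peak. For *ENO2* the share was 92.2% and 87.5%, and for *ENO3* it was 0%.

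The pyruvate kinase genes differed as the mutases did. *PKM* (chr15:72491370-72524160, minus strand) was the bound member whose replicate 1 peaks missed the canonical start. One lay in the first intron at chr15:72522307-72522993, centred 881 bp downstream of the canonical start and upstream (-587) of the start of ENST00000568459. The other, chr15:72519052-72519448, was centred 4281 bp downstream and overlapped a replicate 2 peak at chr15:72519085-72519381. These overlapping intronic peaks were the only place in *PKM* where the lists met, and they were more than 1 kb from any start site. The other 5 replicate 2 peaks in *PKM* lay on exons, and 3 of these came within 1 kb of the start of an internal transcript, which is how *PKM* counts as bound in replicate 2. One of them, chr15:72494626-72495078, covered all 167 bases of exon 10 and none of exon 9, from which the nearest replicate 2 peak was 285 bp away. The nearest replicate 1 peak was 24091 bp from exon 10. *PKLR* (chr1:155259084-155271229, minus strand) had no peak within 10 kb in either list, and the nearest were 27725 bp (replicate 1) and 11067 bp (replicate 2) from its start. Transcripts starting within 1 kb of a replicate 1 peak held 73.1% and 82.1% of *PKM* FPKM. The shared intronic stretch is chr15:72519174-72519264, and the one nearer to the start is chr15:72522789-72522879 (GRCh37, minus strand).
*PKM* shared intronic peak: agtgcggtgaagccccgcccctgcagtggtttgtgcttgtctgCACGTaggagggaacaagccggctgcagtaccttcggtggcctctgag
*PKM* first-intron peak: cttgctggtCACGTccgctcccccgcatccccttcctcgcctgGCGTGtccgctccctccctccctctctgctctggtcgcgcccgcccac

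Across members, replicate 1 peaks lay on either side of a start site. Measured to the nearest start, the centre was upstream at *PGK1* (-215 bp), *PGAM1* (-161), *ENO2* (-53) and *PKM* (-587), and downstream at *GAPDH* (50) and *ENO1* (181). The side depends on the start used, since for *ENO1* the centre was at -225 bp from the canonical start and -191 bp from the nearest protein-coding one. The median distance of the peak centre from the nearest start was -107 bp over 6 members in replicate 1 and -59 bp over 6 members in replicate 2. All 7 start-site peaks of replicate 1 held ACGTG or GCGTG, where 95.9% of 1075 such peaks of all genes did, so a motif was the usual case. In 5 of the 7 the motif was within 100 bp of the centre, against 92.4% of all such peaks. The exceptions were the *GAPDH* start-site peak, with its nearest motif 114 bp from the centre, and the *PKM* first-intron peak, at -184 bp. The replicate 2 start-site peaks include some that count only through the start of an internal transcript, such as those on the last exons of *GAPDH* and *PGK1*. In replicate 2, 9 of 13 start-site peaks of the members held a motif, against 54.9% of 6075 in all genes. Among the other replicate 2 peaks near members, 7 of 16 did, against 45.4% of all 10573 replicate 2 peaks farther than 1 kb from any start. These groups are not alike, since some of the 16 lay within 1 kb of a start of another gene, such as *RNF167* or *PFN1*.

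The motif was also found where no replicate 1 peak was. In the RefSeq promoter table (GRCh38.p14, 250 bases before to 50 after a start), all 9 members were matched, with 11 promoters, and 8 of the 11 held a motif, against 48.4% of 35116. The match was lacking only at *PGAM1*, whose RefSeq start lies downstream of the canonical one, and at the second promoters of *ENO3* and *PKLR*. The 3 members without a replicate 1 peak within 10 kb are shown for contrast, with the same capitals. For *PGAM2*, GCGTG began at -174 bases from the start, in chr7:44065724-44065753 (minus strand). For *ENO3*, there was 1 at -231, in chr17:4950309-4950338, and 1 at -88, in chr17:4950452-4950481 (plus strand). For *PKLR*, a CACGTG began at -197, in chr1:155301588-155301678 (minus strand), a sequence present in 7.26% of RefSeq promoters. Nothing about binding follows from these letters alone.
*PGAM2* promoter: gagctggtggatGCGTGgggctattttaag
*ENO3* promoter, -231: gaagagccccagGCGTGcagaagctcacaa
*ENO3* promoter, -88: accgacagtcccCACGCcgggcgacaagtg
*PKLR* promoter: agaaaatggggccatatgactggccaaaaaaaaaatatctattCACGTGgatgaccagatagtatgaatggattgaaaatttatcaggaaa

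Over the gene bodies the lists parted. Replicate 1 listed 8 peaks within 10 kb of a member, 6 of them centred inside a member, and none met a last exon. Replicate 2 listed 29, with 19 centred inside a member, 15 of these in an exon and 5 meeting a last exon. Of the exon bases of the 9 genes, 4.60% lay under a replicate 1 peak and 21.1% under a replicate 2 peak. For intron bases it was 0.699% and 0.595%. More than 1 kb from any start site of the same gene, 0 of 15424 exon bases lay under a replicate 1 peak and 28.6% under a replicate 2 peak. Coverage in replicate 2 was highest in *PGAM1* (45.5% of exon bases) and *ENO1* (43.8%), followed by *GAPDH* (28.7%), *PKM* (24.1%), *ENO3* (18.4%) and *PGK1* (14.3%). It was 0% in *ENO2*, *PGAM2* and *PKLR*. Exon coverage of this kind was general among abundant genes, since at or above 100 FPKM replicate 2 covered 22.0% of exon bases and replicate 1 covered 0.467%. The source of the exon peaks was not tested.

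**Figure D4:**
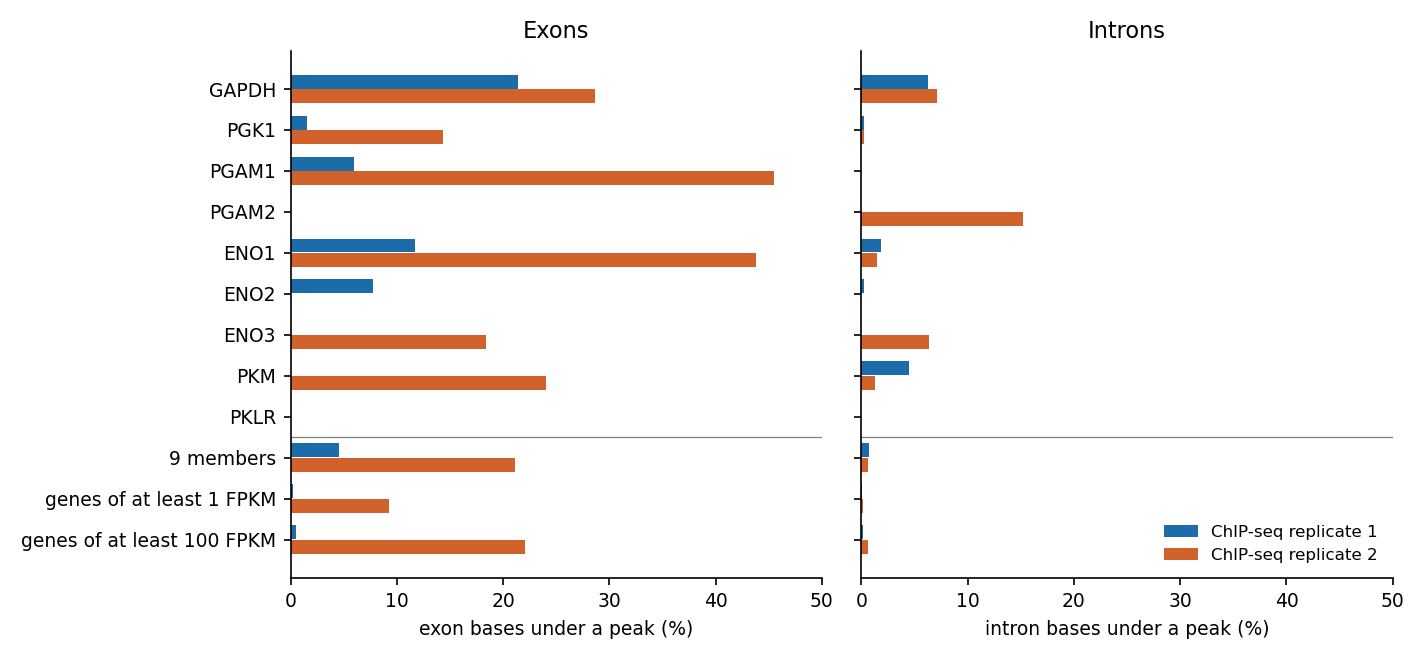
Percent of exon bases (left) and intron bases (right) under a HIF1α peak, for each of the 9 genes, the 9 together and genes of at least 1 or 100 FPKM. Blue bars are replicate 1 and orange bars replicate 2. Replicate 2 covers 21.1% of member exon bases, near the 22.0% of genes at or above 100 FPKM, and replicate 1 covers 4.60%.

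Set beside the rest of the pathway, the 9 lower genes summed to more FPKM than the 13 upper ones, with *GAPDH* as the largest part. The upper genes summed to 2153 and 2081 FPKM, against 12784 and 12234 for the lower ones, or 5114 and 4801 without *GAPDH*. The most abundant upper gene was *TPI1*, whose product feeds GAPDH, at 909 and 877 FPKM, above *PGAM1*, *PKM* and *PGK1*. Of the 13, 9 reached 1 FPKM, 7 had a start-site peak in replicate 1 (*HK1*, *HK2*, *GPI*, *PFKL*, *PFKP*, *ALDOA* and *TPI1*), 5 in replicate 2 and 5 in both. Each upper gene with a mean of at least 100 FPKM had a replicate 1 peak, and none below 1 FPKM did. Between these levels, *HKDC1* at a mean of 44.4 FPKM and *PFKM* at 19.1 had no start-site peak. *HK1* at 96.9 had one in replicate 1 alone, and *HK2* at 23.7 had one in both lists. Past pyruvate kinase, the lactate dehydrogenase gene *LDHA* was at 696 and 697 FPKM with a peak in both lists, and *LDHB* was at 428 and 439 with none. Of the 7 genes of pyruvate and lactate handling, 3 had a peak in each list, *LDHA*, the lactate exporter gene *SLC16A3* and *PDK1*, whose product inhibits pyruvate dehydrogenase. The 3 genes of the serine branch, which leaves the pathway between *PGK1* and *PGAM1*, were expressed, with *PHGDH* at 59.4 and 51.6 FPKM, and had no start-site peak. Gluconeogenesis genes had none in replicate 1 and 1 of 8 in replicate 2 (*PCK2*), and the 5 other genes of the same reactions had none. With 2.5% and 9.72% of all genes bound in these lists, such low counts say nothing particular about these genes. *BNIP3*, *ANGPTL4* and *HILPDA* were taken from genes that the study marks as bound by HIF1α in this same ChIP-seq. Their peaks are therefore given for position only and are no independent check. *BNIP3* had a start-site peak centred at -69 in replicate 1 and -78 in replicate 2, with levels of 279.9 and 297 FPKM. *ANGPTL4* had peaks at -260 and -275, and *HILPDA* at -77 and -79.

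**Figure D5:**
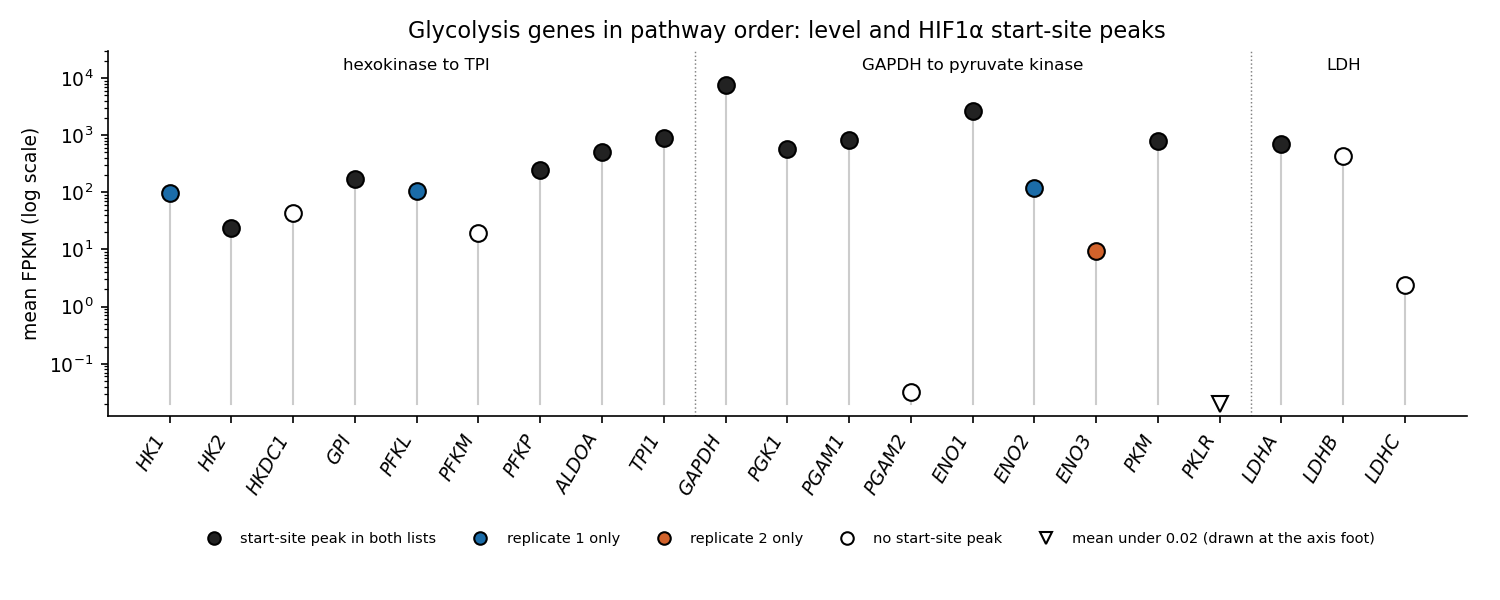
Mean FPKM of 2 libraries on a log axis for glycolysis genes in pathway order, from hexokinase to lactate dehydrogenase, with the 9 upper glycolysis genes at or above 1 FPKM, the 9 lower ones and the lactate dehydrogenase genes. Fill shows where a HIF1α start-site peak was listed, and open triangles are means under 0.02. All 6 lower glycolysis genes above 100 FPKM carry a replicate 1 peak, as do 7 of the 9 upper glycolysis genes drawn.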

How the data were processed

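HIF1α ChIP-seq (2 replicates) and RNA-seq (2 replicates) of HK2 cells given 50 μM FG-4592 were used. Adapter trimming and quality filtering by the authors came first. ChIP-seq reads were placed on hg19 by Bowtie2, only unique alignments went on to MACS2, run per replicate, and the deposited lists give start and end in bp. Version, threshold and control library are not given. For RNA-seq the authors used HISAT2 and StringTie 1.3.3 with GENCODE 27 and the deposited tables give, for each transcript, coverage, FPKM and TPM, without read counts. The study's methods name hg19, but the coordinates are those of GRCh38.

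FPKM was summed per gene. Peaks were compared with GENCODE 44 mapped to GRCh37 and joined to expression by Ensembl identifier (55862 genes). ACGTG and GCGTG were sought on both strands in GRCh37 and in RefSeq promoters (GRCh38.p14). The members and lists were chosen with earlier results of these data known. Named were the members, lists of related pathways and markers, neighbours with a start site under or nearest to a start-site peak, and the highest pseudogene copy. Transcripts with at least 5% of a gene's FPKM, the 5 most abundant genes and 3 genes that the study marks as bound by HIF1α were also named. *DBNL*, *RNF167*, *SPAG7* and *TAF9B*, which hold peak centres, and a few smaller transcripts were named after their values were seen. Alternatives covered the expression unit, the transcripts counted, pseudogenes, a pseudocount, minimum levels, start sites, windows, the motif window and each replicate. The code was tested on simulated data. The software was Python 3.11.15, numpy 2.4.6, pandas 2.3.3, pysam 0.24.0, matplotlib 3.10.9 and samtools 1.23.1.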

Additional observations from a re-analysis of the deposited data

How the results depend on the processing

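Among the main results, 31 alternative values kept the direction and the size within the spread between replicates or within 1.5 times a count, while 12 moved further and 1 changed sign. Among single genes 61 did so, 31 moved further and 1 changed sign. These counts do not measure stability, since some alternatives could not move. With 2 RNA-seq libraries, leaving 1 out cannot take a level or share further from the mean than the SD. Shares in TPM equal those in FPKM by construction, and a gene at 0 in both libraries stays at 0. The members past the minimum level numbered 6 or 7 under every minimum, unit and library tried. Under the largest transcript alone, *ENO1* made up 97.6% of enolase, and on protein-coding transcripts, chosen after seeing the data, 91.4%. At the first start site only, 3 members had a peak in both lists. The exon 10 share of *PKM* was 97.6% by coverage on the exons. It was 8.13% on protein-coding transcripts, a measure that counts transcripts by annotation and not reads on the exons. By a limit chosen after seeing the data, it was 99.9% on transcripts covered on the exon. That share follows from the limit, which removes the main exon 9 transcripts for their low coverage there. On exons of protein-coding transcripts, member exon bases under peaks were 5.39% in replicate 1 and 23.3% in replicate 2. More than 1 kb from a start site of the same gene, they were 0% and 28.6%. The median distance of the peak centre reversed from -107 to 509.5 bp when counted from the first start site, which by construction lies upstream, and was -176 bp from the nearest protein-coding start. Leaving out 1 replicate at a time gave -107 to -59 bp. The log2 ratio of the libraries for *PGK1* reversed from -0.20 to 0.039 on protein-coding transcripts, an alternative chosen after seeing the data. Values at the first start site, under the limit on covered transcripts and on protein-coding transcripts follow from which starts or transcripts are counted. For the other values that moved, the cause was not tested.

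No paired analysis was possible because the samples hold a single treatment and no labels pair the ChIP-seq with the RNA-seq replicates. The count of neighbouring genes that overlap has no value with 1 library. With 2 libraries an SD is imprecise. The tables hold no read counts, so no counting interval is given, and values of 0 cannot be told from values too low to list. The peak lists carry no score or depth, so a stricter threshold was not tried, and a missing peak is not shown to be an unbound site.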
